A study of Mus musculus with 14 samples.

Results

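The mRNA levels of 10 lymphoid organizer and follicle genes were described in bulk RNA-seq of 14 tumors. The genes were chosen by name for their roles in lymphoid tissue and in the support of B cells, from the 53801 genes with values in each tumor. They were the ligands Lta, Ltb, and Tnfsf13b, the chemokines Cxcl13, Ccl19, and Ccl21a, and the receptors Ltbr, Cxcr5, Cd40, and Cr2. All 14 tumors grew under the skin of Balb/c mice aged 6 to 8 weeks from CT26, a colon carcinoma line of that strain, which carried ClonTracer barcodes and was transplanted at both flanks with 250000 cells per site. Antibody was given from day 7 at 200 µg per dose, every 3 days for 5 doses, and tumors were taken 3 days after the last dose. The 5 control IgG tumors came from 4 mice that received control antibody (tumors 14L, 14R, 16R, 17R, and 20R). The 5 responders (24L, 26R, 30L, 30R, and 35L) came from 4 mice and the 4 non-responders (29L, 32R, 33L, and 33R) from 3 mice, all treated with anti-PD-1, the antibody against the T cell inhibitory receptor PD-1. Responders and non-responders had been separated by tumor size relative to control IgG tumors, so that response and tumor size cannot be told apart.

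Lymphoid tissue is built by an exchange between lymphocytes and stromal cells. Lymphotoxin α and lymphotoxin β, encoded by Lta and Ltb, form a trimer on the surface of lymphocytes that binds the lymphotoxin β receptor (Ltbr) on stromal and myeloid cells, and this receptor turns on the non-canonical NF-κB pathway and the chemokines CXCL13, CCL19, and CCL21. CXCL13 draws B cells and follicular helper T cells through CXCR5 into follicles, whereas CCL19 and CCL21 draw T cells and dendritic cells through CCR7. BAFF (Tnfsf13b) keeps B cells alive, CD40 receives T cell help on B cells and dendritic cells, and complement receptor 2 (Cr2) marks mature B cells and follicular dendritic cells, the network at the center of a follicle. When such tissue forms in a tumor it is called a tertiary lymphoid structure.

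Expected counts, RSEM's estimates of the fragments that came from each gene, summed to between 33237744 and 48481461 per tumor. CPM is a count scaled to a common library total, with edgeR's TMM factor applied. A count of 3, taken as the lowest that could be told from 0, was between 0.0619 and 0.0903 CPM before the TMM factor. With the factor, 3 counts were 0.0596 CPM in 30R and 0.095 CPM in 33R. This is a limit for counting error only. TPM also divides by transcript length, and it was used wherever one gene's level was set beside another's. The mean fragment length was 277.5 to 287.8 bases in non-responders and 269.5 to 277.0 bases in responders, without overlap, and it was longest in non-responder 33R. Marker genes of CT26 cells (an epithelial and carcinoma list of 8 genes) summed to 194 to 230 CPM in control IgG tumors, 143 to 180 CPM in non-responders, and 75.1 to 140 CPM in responders.

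Sequences upstream of Ltb and Cxcl13 are shown because their products stand at the 2 ends of the lymphotoxin circuit, the signal and the chemokine, and their levels differed in their relation to the groups. Both come from RefSeq promoters of GRCm38.p6 and are written 5′ to 3′ on the plus strand, with a kB motif, the kind of site that NF-κB binds, in capitals. The Ltb stretch is chr17:35194257-35194438 and the Cxcl13 stretch is chr5:95956689-95956938.
Ltb: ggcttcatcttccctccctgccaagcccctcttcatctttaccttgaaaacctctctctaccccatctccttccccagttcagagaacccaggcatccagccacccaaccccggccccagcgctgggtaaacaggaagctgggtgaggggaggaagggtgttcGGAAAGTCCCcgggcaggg
Cxcl13: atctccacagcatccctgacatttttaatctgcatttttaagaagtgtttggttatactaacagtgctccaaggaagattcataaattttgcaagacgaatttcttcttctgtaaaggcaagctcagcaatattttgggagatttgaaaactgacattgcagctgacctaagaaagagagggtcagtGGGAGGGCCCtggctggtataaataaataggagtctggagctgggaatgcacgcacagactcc
The motif searched was GGGANNNNCC, where N is any base, or GGNNNNTCCC on the other strand, in windows from 250 bases before to 50 bases after a start. It was found in 20.7% of 32851 promoters, so that a match is common. Of the 10 genes, 8 had a promoter in the table, and the kB motif was found upstream of Ltb, Cxcl13, Ccl19, and Cr2, and not in the windows of Lta, Ltbr, Ccl21a, and Tnfsf13b. A motif of interferon regulatory factors, GAAANNGAAA or TTTCNNTTTC on the other strand, was found in 3.44% of promoters, and among these genes in those of Ccl19 and, for 1 of 2 annotated starts, Tnfsf13b. These are matches of letters, and no binding was measured.

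Ltbr was by far the highest of the 10 genes when scaled by length. Over the 14 tumors its mean level was 56.5 TPM, with a lowest of 53 and a highest of 61.6. Ltb followed with a mean of 9.04 TPM, Cd40 with 8.68 TPM, and Cxcl13 with 6.25 TPM. Ccl21a (1.83 TPM) and Tnfsf13b (1.64 TPM) came next. Cxcr5 (0.149 TPM), Ccl19 (0.146 TPM), Lta (0.103 TPM), and Cr2 (0.0314 TPM) were close to the limit of detection. Of the 9 pairs of neighbors in this order, only Ltbr and Ltb had ranges of TPM that did not meet. Tnfsf13b was above Cxcr5 in 14 of 14 tumors, and their ranges met at 0.92 TPM, the level of Cxcr5 in 30L. That level, which also enters the mean of Cxcr5, rests on a short deposited effective length of 561.3 bases. The next highest Cxcr5 was 0.18 TPM in 24L. Ltb was above Cd40 in 7 of 14 tumors, so these neighbors could not be ranked, whereas Cd40 was above Cxcl13 in 11 of 14. The receptor for lymphotoxin was therefore abundant in every tumor, the β chain of its ligand was several times lower per length, and the α chain was barely detected.

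**Figure D1:**
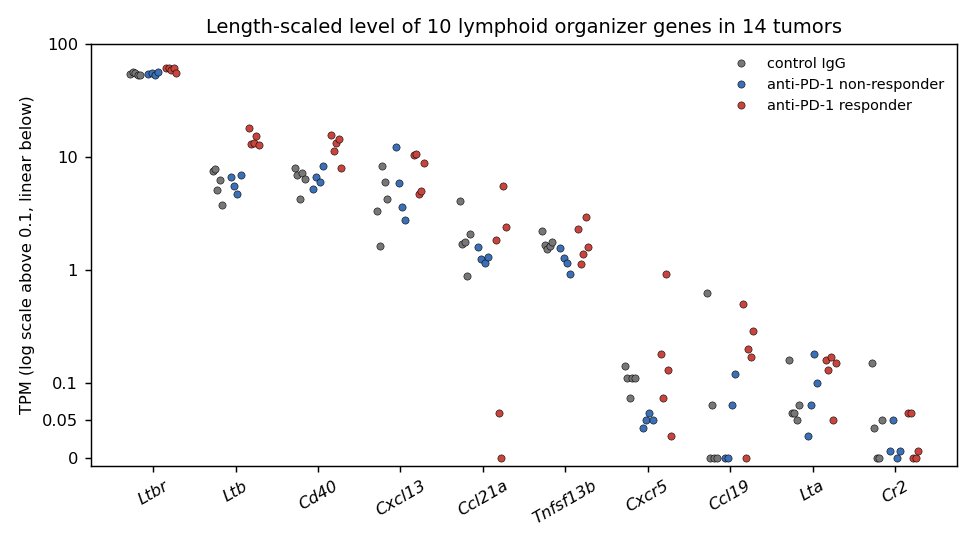
TPM of the 10 genes (horizontal axis, in order of the mean) in each of 14 tumors, with 1 point per tumor in the color of its group, on a log axis above 0.1 TPM and a linear axis below. Ltbr lies between 53 and 61.6 TPM in all tumors, and Cxcr5, Ccl19, Lta, and Cr2 lie below 1 TPM.

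For 6 of the 10 genes (Ltb, Cd40, Cxcl13, Ltbr, Tnfsf13b, and Ccl21a), counts were high enough for edgeR's quasi-likelihood test, which was fitted on 16287 genes with p-values adjusted over all of them. Between responders and non-responders, 1 of the 6 genes was higher in responders at an adjusted p under 0.05 (Ltb) and 0 were lower, against 5.08% of all genes tested that were higher and 4.82% that were lower. Between responders and control IgG tumors, 2 of the 6 were higher in responders (Ltb and Cd40) and 0 were lower, against 7.88% and 5.3% of all genes. Between non-responders and control IgG tumors, 0 of the 6 differed, as did 0% of all genes in either direction. In that comparison 758 genes, 1 of the 6 among them, had an unadjusted p under 0.05, and DESeq2 called 16 genes and none of the 6. The 6 genes had a median log2 fold change of 0.40 between responders and non-responders, 0.32 between responders and control IgG tumors, and 0.12 between non-responders and control IgG tumors, and that of all genes was 0.01, -0.01, and 0.01. With 6 genes these shares are coarse, and the comparisons share tumors. In bulk tumor RNA, fewer cells of a type and less RNA per cell cannot be told apart, and this applies to every level given here.

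Among the ligands, Ltb (ENSMUSG00000024399, chromosome 17 of mm10, 35194439 to 35196320, plus strand) was about doubled in responders. It was at 12.6, 9.56, 9.69, 10.2, and 9.13 CPM in responders 24L, 26R, 30L, 30R, and 35L. It was at 5.11, 4.58, 3.48, and 7.16 CPM in non-responders 29L, 32R, 33L, and 33R. In control IgG tumors 14L, 14R, 16R, 17R, and 20R, Ltb was at 5.42, 6.55, 3.97, 4.77, and 2.92 CPM. Every responder was above every other tumor, whereas non-responders and control IgG tumors overlapped. Over all genes tested, 6.78% were higher in responders than in non-responders without overlap, and 8.34% were so against control IgG tumors. Responders averaged 10.2 ± 1.37 CPM (SD, n = 5), non-responders 5.08 ± 1.54 CPM (SD, n = 4), and control IgG tumors 4.73 ± 1.38 CPM (SD, n = 5). Against non-responders this was a log2 fold change of 1.01 for Ltb (standard error 0.23, edgeR adjusted p = 0.018), and it was 1.11 against control IgG tumors (standard error 0.21, edgeR adjusted p = 0.00456). Non-responders and control IgG tumors differed in Ltb by 0.10 (95% interval -0.38 to 0.59, edgeR adjusted p = 0.951). The call against non-responders was lost when responder 24L (log2 fold change 0.93, edgeR adjusted p = 0.0506) or non-responder 32R (0.96, edgeR adjusted p = 0.0548) was left out. Without non-responder 33R, the tumor with the longest fragments, the log2 fold change of Ltb was 1.23 (edgeR adjusted p = 0.0178).

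Lta lies next to Ltb on chromosome 17 with Tnf between them (Lta, 35203165 to 35205351, minus strand), and it did not reach the filter on low counts. Its counts were 6, 4, 6, 2, and 6 in responders 24L, 26R, 30L, 30R, and 35L, 1, 3, 6, and 4 in non-responders 29L, 32R, 33L, and 33R, and 5, 3, 2, 2, and 3 in control IgG tumors 14L, 14R, 16R, 17R, and 20R. The groups overlapped, and 4 of 14 tumors had fewer than 3 counts. Summed over the tumors of a group, Lta was at 0.117 CPM in responders (95% Poisson interval 0.0751 to 0.174, counting error only), 0.0904 CPM in non-responders (0.0494 to 0.152), and 0.0724 CPM in control IgG tumors (0.0405 to 0.119), without TMM scaling. Mean CPM was 0.117 ± 0.0457 in responders and 0.0977 ± 0.0636 in non-responders (two-sided exact permutation test, p = 0.595). Over the 10 such tests on low genes and on Ccl21a with its copies, the lowest adjusted p was 0.61. Tnf, the third gene of the cluster, averaged 2.35 CPM in responders, against 1.54 CPM in non-responders (log2 fold change 0.62, standard error 0.29, edgeR adjusted p = 0.189).

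Tnfsf13b, which encodes the B cell survival factor BAFF (chromosome 8, 10006467 to 10039072, plus strand), was lowest in non-responders. It was at 3.14, 1.46, 1.85, 2.94, and 2.38 CPM in responders 24L, 26R, 30L, 30R, and 35L, and at 1.92, 1.67, 1.73, and 1.36 CPM in non-responders 29L, 32R, 33L, and 33R. In control IgG tumors 14L, 14R, 16R, 17R, and 20R, Tnfsf13b was at 2.84, 2.45, 2.13, 2.36, and 2.15 CPM. All non-responders were below all control IgG tumors, a separation that 0.522% of all genes tested showed in that direction, and responders overlapped both groups. None of the differences passed the test. The log2 fold change was 0.50 between responders and non-responders (95% interval 0.03 to 0.96, unadjusted p = 0.0374 and adjusted p = 0.152 in edgeR) and -0.51 between non-responders and control IgG tumors (95% interval -0.98 to -0.05, unadjusted p = 0.0325 and adjusted p = 0.931 in edgeR).

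**Figure D2:**
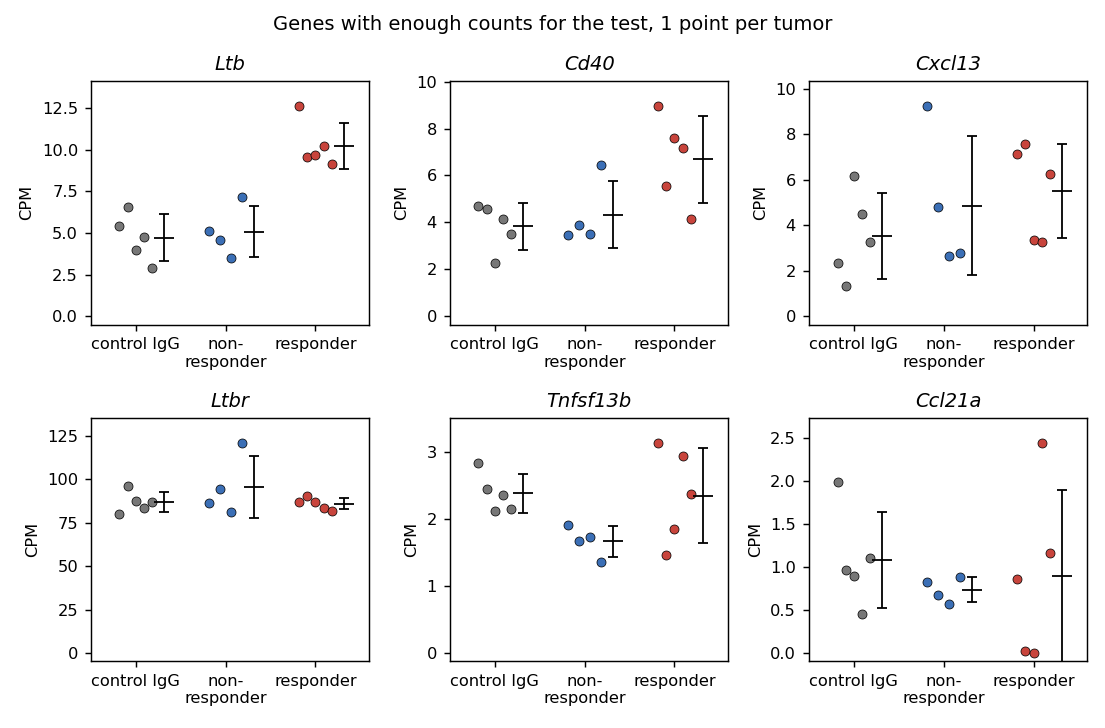
CPM (vertical axis, linear) of the 6 genes with enough counts for the test, with 1 point per tumor, grouped as control IgG (n = 5), non-responder (n = 4), and responder (n = 5), and the mean ± SD beside each group. The 5 responders lie above all other tumors for Ltb, from 9.13 to 12.6 CPM, and 2 responders lie at or near 0 CPM for Ccl21a.

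Among the chemokines, Cxcl13 (chromosome 5, 95956951 to 95961068, plus strand), the attractant of B cells, varied within each group. It was at 7.14, 7.58, 3.35, 3.28, and 6.25 CPM in responders 24L, 26R, 30L, 30R, and 35L, and at 9.24, 4.79, 2.66, and 2.79 CPM in non-responders 29L, 32R, 33L, and 33R. In control IgG tumors 14L, 14R, 16R, 17R, and 20R, Cxcl13 was at 2.36, 1.34, 6.17, 4.48, and 3.29 CPM. The highest tumor of all was a non-responder (29L) and the lowest a control IgG tumor (14R), and all groups overlapped. The log2 fold change was 0.18 between responders and non-responders (95% interval -0.78 to 1.13, edgeR adjusted p = 0.836) and 0.65 between responders and control IgG tumors (95% interval -0.26 to 1.55, edgeR adjusted p = 0.349). A 2-fold rise in responders lies inside both intervals, whereas a 2-fold fall lies outside both.

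Left and right tumors of a mouse were near each other in Cxcl13 in 2 of 3 mice. The difference in log2 CPM, right minus left, was -0.03 in mouse 30 (responders) and 0.07 in mouse 33 (non-responders), against -0.79 in mouse 14 (control IgG). With 3 mice this is a description only.

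Ccl21a (chromosome 4, 42772860 to 42773993, minus strand), which lymphatic endothelium and lymph node stroma make, had the largest spread among the 6 genes. Its counts were 37, 1, 0, 123, and 53 in responders 24L, 26R, 30L, 30R, and 35L. They were 32.8, 29.3, 20, and 28 in non-responders 29L, 32R, 33L, and 33R, and 70, 45, 34, 19, and 48.3 in control IgG tumors 14L, 14R, 16R, 17R, and 20R. The lowest tumor and the highest tumor were the left and the right flank tumor of the same responder mouse (30L and 30R). The 0 counts in 30L allow up to 0.0792 CPM, against 2.44 CPM in 30R, which is at least 30.8-fold higher. The log2 fold change of Ccl21a between responders and non-responders was 0.31 (95% interval -1.49 to 2.11, edgeR adjusted p = 0.849), and it turned to -0.49 without responder 30R. Against control IgG tumors it was -0.24 (95% interval -1.90 to 1.43, edgeR adjusted p = 0.877).

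Levels of Ccl21a were set beside those of genes of skin, lymphatic vessels, and T cells. Krt5, a keratin of the basal epidermis, was at 150 CPM in 30R and 114 CPM in control IgG tumor 14L, the tumors with the highest Ccl21a, and at 4.28 CPM in 30L and 5.62 CPM in 26R, the tumors with the lowest. Control IgG tumor 14R departed from this, with 1 CPM of Krt5 and 0.96 CPM of Ccl21a. Over the 14 tumors, skin epidermis genes, as the mean of their log2 CPM, correlated with Ccl21a at r = 0.67 (0.64 within groups), and T cell genes at -0.17 (0.32 within groups). Lymphatic endothelium genes, Ccl21a itself left out, correlated with it at r = 0.46 (0.58 within groups). With Ccl21a included, the mean log2 CPM of this list was -0.19 in 26R and -0.11 in 30L, against 1.17 in 30R and 0.74 in 14L. The summed CPM of the list, also with Ccl21a, ran the other way. It was 110 CPM in 26R and 111 CPM in 30L, against 95.2 CPM in 30R and 93.6 CPM in 14L. Lyve1, a hyaluronan receptor of lymphatic endothelium and some macrophages, was at 55.2 CPM in 26R, 34.2 CPM in 30L, 27.6 CPM in 30R, and 26.1 CPM in 14L. Prox1, the transcription factor that defines lymphatic endothelium, was at 1 to 10 counts in all tumors. It had 1 count in 26R, 5 in 30L, 10 in 30R, and 6 in 14L. The part of skin in the differences of Ccl21a between groups was not tested.

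The mouse genome holds several near-identical copies of Ccl21a, among which RSEM divides fragments. The GENCODE transcripts of Ccl21b and Gm10591 each differ from Ccl21a at 2 of 402 aligned bases (99.5% identity), and those of Gm13304 and Gm21541 are 99.4% and 99.3% identical. The bases at which Ccl21a and Ccl21b differ are shown in capitals in 30 bases of each, since within the 402 aligned bases these 2 transcripts differ only there. They are T84A and C194T, with the base of Ccl21a first and positions counted from 1 at the first base of the Ccl21b transcript.
Ccl21a around the first: agtgatggagggggTcaggactgctgcctt
Ccl21b around the first: agtgatggagggggAcaggactgctgcctt
Ccl21a around the second: ggcaatcctgttctCaccccggaagcactc
Ccl21b around the second: ggcaatcctgttctTaccccggaagcactc
Among the copies on chromosome 4, Ccl21b, Gm10591, and Gm21541 had 0 counts in every tumor, and Gm13304 had 1.23 counts in 1 tumor. A further copy, on a separate scaffold of the assembly, had up to 5.71 counts in 2 tumors. Summed with the copies whose name begins with Ccl21, which leaves out the Gm copies, Ccl21a averaged 0.896 ± 1 CPM in responders. It averaged 0.77 ± 0.14 CPM in non-responders (two-sided exact permutation test against responders, p = 0.881). In control IgG tumors it was 1.09 ± 0.562 CPM (p = 0.69 against responders by the exact permutation test).

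Ccl19 (chromosome 4, 42754525 to 42756577, minus strand), the other ligand of CCR7, was at 0 in 6 of 14 tumors and under 3 counts in 10. Responders 24L, 26R, 30L, 30R, and 35L had 7.58, 0, 2.94, 3, and 5 counts, and non-responders 29L, 32R, 33L, and 33R had 0, 0, 1, and 2. Among control IgG tumors, 14L had 7.32 counts, 16R had 1, and 14R, 17R, and 20R had 0. The groups overlapped, and the 5 tumors with 2.94 counts or more were 14L and 4 of the responders. Mean CPM was 0.0865 ± 0.0679 in responders and 0.0229 ± 0.0301 in non-responders (two-sided exact permutation test, p = 0.135), and 0.045 ± 0.0867 in control IgG tumors (exact p = 0.444 against responders). A pseudogene, Ccl19-ps3, is identical to Ccl19 over 324 aligned bases, and it had 0.68 counts in 1 tumor.

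Among the receptors, Ltbr (chromosome 6, 125306571 to 125313885, minus strand) was even across tumors. It was at 82 to 90.5 CPM in responders (median 86.9), 80.2 to 96.1 CPM in control IgG tumors (median 86.7), and 81 to 94.2 CPM in 3 non-responders, with 121 CPM in 33R. On the TPM scale 33R was at 56.7 and within the range of the other tumors. The log2 fold change of CPM between responders and non-responders was -0.15 (95% interval -0.37 to 0.06, edgeR adjusted p = 0.345), and without 33R it was 0.00. On the TPM scale (limma, pseudocount 1) the same comparison gave 0.12, and in edgeR with a trend on gene length removed it gave -0.13. Against control IgG tumors the log2 fold change of CPM was -0.01 (95% interval -0.22 to 0.19, edgeR adjusted p = 0.947), an interval that leaves out a change of Ltbr as large as that of Ltb.

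Cd40 (chromosome 2, 165055627 to 165072948, plus strand), through which helper T cells activate B cells and dendritic cells, was higher in responders than in control IgG tumors. It was at 8.95, 5.57, 7.58, 7.19, and 4.14 CPM in responders 24L, 26R, 30L, 30R, and 35L. It was at 3.46, 3.87, 3.51, and 6.46 CPM in non-responders 29L, 32R, 33L, and 33R, and at 4.68, 4.59, 2.26, 4.15, and 3.52 CPM in control IgG tumors 14L, 14R, 16R, 17R, and 20R. Of the responders, 4 were above every control IgG tumor, and 35L was within their range. The log2 fold change was 0.80 against control IgG tumors (standard error 0.25, edgeR adjusted p = 0.0467), which rose past the threshold in 11 of 14 refits that left out 1 tumor, to at most 0.131. Against non-responders it was 0.63 (95% interval 0.06 to 1.2, edgeR adjusted p = 0.137). In TPM the latter was 0.84 with an adjusted p of 0.0157 (limma, pseudocount 1), and after removal of a trend on gene length it was 0.84 with an edgeR adjusted p of 0.0357. Without 33R it was 0.90 (edgeR adjusted p = 0.0637). The ligand of CD40, Cd40lg, was at 0 counts in 7 of 14 tumors and at most 5 counts in the others.

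**Figure D3:**
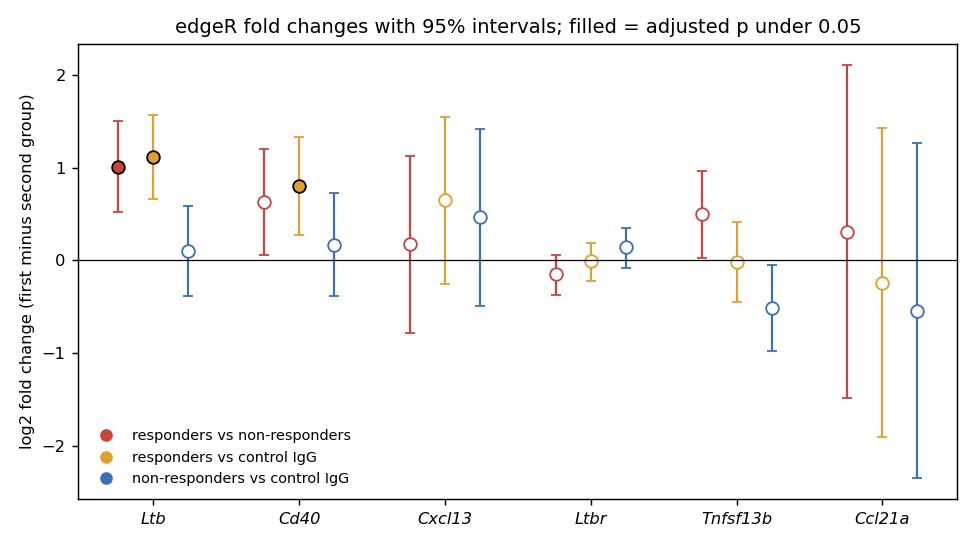
Log2 fold change (vertical axis, first minus second group) of the 6 genes with enough counts in 3 comparisons, with bars for 95% intervals and filled points where the edgeR adjusted p was under 0.05. Filled points are Ltb in both comparisons of responders and Cd40 against control IgG tumors, and the widest intervals are those of Ccl21a.

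Cxcr5 (chromosome 9, 44511787 to 44561877, minus strand), the receptor for CXCL13, had 14, 5, 16, 11, and 3 counts in responders 24L, 26R, 30L, 30R, and 35L. It had 3, 5, 4, and 4 counts in non-responders 29L, 32R, 33L, and 33R, and 9, 11, 6, 9, and 10 counts in control IgG tumors 14L, 14R, 16R, 17R, and 20R. Responders covered the ranges of both other groups. All non-responders were below all control IgG tumors, a difference that was not tested, and 0.522% of all genes tested (Cxcr5 is not among them) showed such a separation. Summed over tumors, Cxcr5 was at 0.239 CPM in responders (95% Poisson interval 0.177 to 0.316), 0.103 CPM in non-responders (0.059 to 0.168), and 0.217 CPM in control IgG tumors (0.158 to 0.291). Mean CPM was 0.235 ± 0.141 in responders and 0.108 ± 0.0227 in non-responders, and the two-sided exact permutation test gave p = 0.135, where the smallest p possible was 0.00794. Without responder 35L the exact p was 0.0286. The 3′ end of Cxcr5 overlaps Bcl9l on the opposite strand (44482825 to 44511896), which had a mean of 1498 counts per tumor, and the use of strand in counting is not given in the sources used here. The TPM of Cxcr5 in 30L, 0.92, rests on a deposited effective length of 561.3 bases, against 2327 to 2346 bases in the other tumors.

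Cr2 (chromosome 1, 195136811 to 195176716, minus strand), the complement receptor of mature B cells and follicular dendritic cells, was at 0 in 4 of 14 tumors and at most 4 counts in the others. Responders averaged 0.0385 ± 0.0368 CPM, non-responders 0.054 ± 0.0412 CPM, and control IgG tumors 0.0333 ± 0.0311 CPM, all below the limit of 3 counts. The exact permutation test gave p = 0.563 against non-responders and p = 0.81 against control IgG tumors. Fcer2a, another receptor of follicular dendritic cells and naive B cells, was at 0 in 7 of 14 tumors and at most 5 counts.

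**Figure D4:**
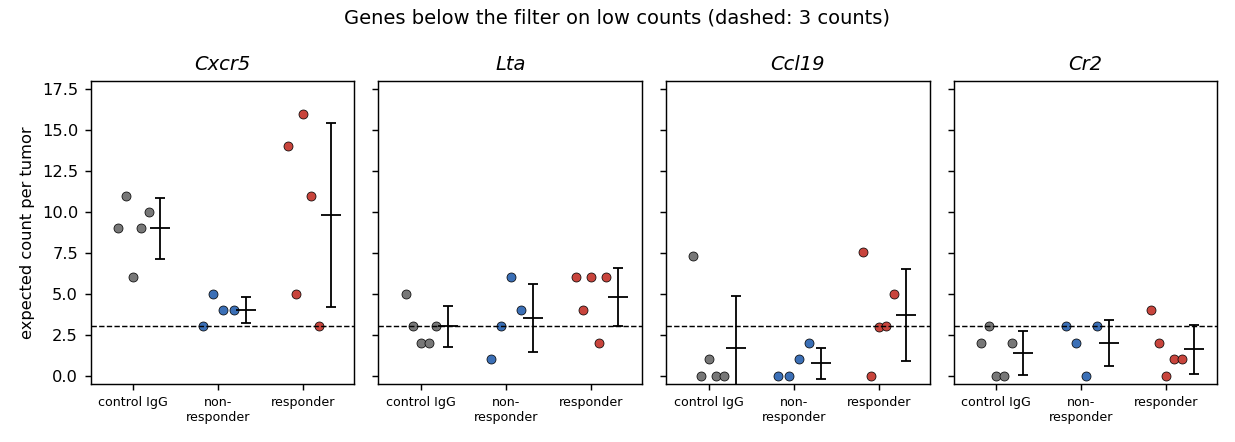
Expected counts per tumor (vertical axis, linear) of the 4 genes below the filter on low counts, with 1 point per tumor by group, the mean ± SD beside each group, and a dashed line at 3 counts. Cxcr5 is at 3 counts or more in all tumors, and Ccl19 and Cr2 are under 3 counts in 10 of 14 each.

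Other genes of the pathway were counted in lists, to be read against the shares of all genes tested, which were 5.08% higher and 4.82% lower in responders than in non-responders, and 7.88% and 5.3% against control IgG tumors. Of 14 genes for lymphotoxin and non-canonical NF-κB signaling, 2 were higher in responders than in non-responders and 0 lower, with a median log2 fold change of 0.22. They were Tnfrsf14, the receptor for LIGHT (log2 fold change 0.76, standard error 0.17, edgeR adjusted p = 0.0175), and Tnfrsf1b, a receptor for TNF and soluble lymphotoxin α (0.54, standard error 0.11, edgeR adjusted p = 0.0143). LIGHT itself (Tnfsf14), which also binds the lymphotoxin β receptor, averaged 1.67 CPM in responders, against 1.42 CPM in non-responders (log2 fold change 0.24, standard error 0.20, edgeR adjusted p = 0.46). Nfkb2 (0.21) and Relb (0.03), the transcription factors of the non-canonical pathway, had no adjusted p under 0.05. Between responders and control IgG tumors, 2 of the 14 were higher and 0 lower.

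Of 11 tested genes for lymphoid chemokines, their receptors, and IL-7, 1 was higher and 1 lower in responders than in non-responders (median log2 fold change 0.02). Ccr7, the receptor for CCL19 and CCL21 on naive T cells and mature dendritic cells, averaged 4.80 ± 1.29 CPM in responders, against 2.40 ± 0.168 CPM in non-responders (log2 fold change 1.0, standard error 0.22, edgeR adjusted p = 0.0158). Ackr3, a scavenger of CXCL12, fell (log2 fold change -0.49, standard error 0.11, edgeR adjusted p = 0.017), a call that was lost on the TPM scale. Ackr4, the scavenger of CCL19 and CCL21, differed by 0.01 (standard error 0.59). Against control IgG tumors 2 of the 11 were higher and 3 lower (median log2 fold change 0.01). Among the latter was Il7, a lymphocyte survival factor (5.04 CPM on average in responders, 9.07 CPM in control IgG tumors, log2 fold change -0.85, standard error 0.17, edgeR adjusted p = 0.00573).

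Receptors for BAFF did not pass the test. Of 3 tested genes of the BAFF and APRIL system, 0 differed between responders and non-responders (median log2 fold change 0.01), and 1 was higher in responders than in control IgG tumors. Tnfrsf13b (TACI) was at 263 to 480 counts and Tnfrsf17 (BCMA) at 19 to 39 counts, whereas Tnfrsf13c, the BAFF receptor of mature B cells, was under 3 counts in 8 of 14 tumors. Of 8 tested genes for CD40 and follicular help, 2 were higher in responders than in non-responders and 0 lower (median log2 fold change 0.31), and 2 were higher against control IgG tumors. Those higher against non-responders were Icos (log2 fold change 0.92, edgeR adjusted p = 0.0381) and Maf (0.48, edgeR adjusted p = 0.0298). Each call was lost under 5 of 14 omissions (24L, 30R, 32R, or 33R for both, 30L for Icos, and 26R for Maf), and under 4 of 13 other settings for Icos and 2 of 13 for Maf. Il21 and Il4, cytokines of follicular helper T cells, were under 3 counts in every tumor.

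Of 7 tested genes for germinal center B cells, 3 were higher in responders than in non-responders and 0 lower (median log2 fold change 0.44), and 3 were higher against control IgG tumors. Among them were Gcsam (log2 fold change 0.90, edgeR adjusted p = 0.0455) and Fas (0.75, edgeR adjusted p = 0.0332), and Fas is also found on activated T cells and other cells. The call of Gcsam was lost under 10 of 14 omissions of a tumor (16R, 17R, 24L, 26R, 30L, 30R, 32R, 33L, 33R, or 35L) and 4 of 13 other settings. That of Fas was lost under 5 of 14 omissions (24L, 30L, 30R, 32R, or 33L) and 1 of 13 other settings. Of 10 tested genes for follicular dendritic and marginal reticular cells, 3 were higher and 1 lower (median log2 fold change 0.11). The higher ones were Icam1 (0.88), Clu (0.94), and Vcam1 (0.52), which many stromal, endothelial, and myeloid cells express, and the lower one was Prnp (-0.50). The call of Vcam1 was lost under 2 of 14 omissions (24L or 32R). That of Prnp was lost under 3 of 13 other settings, over which its log2 fold change was -0.50 to -0.24. Those of Icam1, Clu, and Vcam1 were lost under 1 of 13 each. Against control IgG tumors 3 of the 10 were higher and 2 lower. Of 7 tested genes for high endothelial venules, the vessels through which lymphocytes enter lymph nodes, 0 differed between responders and non-responders (median log2 fold change 0.74). Against control IgG tumors, 1 of the 7 was higher in responders and 0 lower, with a median log2 fold change of 0.12. The higher one was Fut7 (log2 fold change 1.46, standard error 0.23, edgeR adjusted p = 0.00185). Glycam1, which defines these venules in lymph nodes, was at 0 in 10 of 14 tumors and at most 3 counts.

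Marker genes of lymphocytes rose in the same tumors as Ltb. Of 12 T cell genes, 11 were higher in responders than in non-responders and 0 lower, and the list summed to 69.2 to 125 CPM in responders, 38 to 47.7 CPM in non-responders, and 31 to 63.8 CPM in control IgG tumors. Of 9 tested B cell genes, 5 were higher and 1 lower (Bank1), and the list of 12 summed to 19.4 to 24.5 CPM, 10.8 to 14.7 CPM, and 10.3 to 17.3 CPM in the same groups. Ms4a1, which encodes CD20 of B cells, was at 0 to 27 counts, and under 3 counts in 5 of 14 tumors. Over the 14 tumors, log2 CPM of Ltb correlated with the mean log2 CPM of the B cell list at r = 0.95 and with that of the T cell list at r = 0.89. With each group centered on its mean, the values were 0.83 and 0.60. This was not limited to lymphocyte lists. Mature dendritic cell genes correlated with Ltb at r = 0.88 (0.57 within groups) and macrophage genes at r = 0.84 (0.52 within groups). Values were lower for fibroblastic stroma at 0.39 (0.07 within groups), lymphatic endothelium at -0.07 (0.02), and skin epidermis at -0.38 (-0.36). The tumors share the library and its depth across these genes, and the part of lymphocyte number in the difference of Ltb was not tested.

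The other lists differed in their counts. Between responders and non-responders, 2 of 7 plasma cell genes were higher and 0 lower, 5 of 10 mature dendritic cell genes were higher and 0 lower, and 1 of 11 macrophage genes was higher and 0 lower. Among genes of naive lymphocytes of a lymph node, 4 of 6 tested were higher and 0 lower, Ccr7, Tcf7, and Satb1 among them. Of the genes for lymphatic endothelium (5 tested), blood endothelium (8), fibroblastic stroma (10), and skin epidermis (10), 0 differed in either direction, and of 7 for CT26 cells, 1 was lower. Skin epidermis genes summed to 8.07 to 756 CPM in control IgG tumors, 145 to 316 CPM in non-responders, and 13.2 to 1040 CPM in responders.

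**Figure D5:**
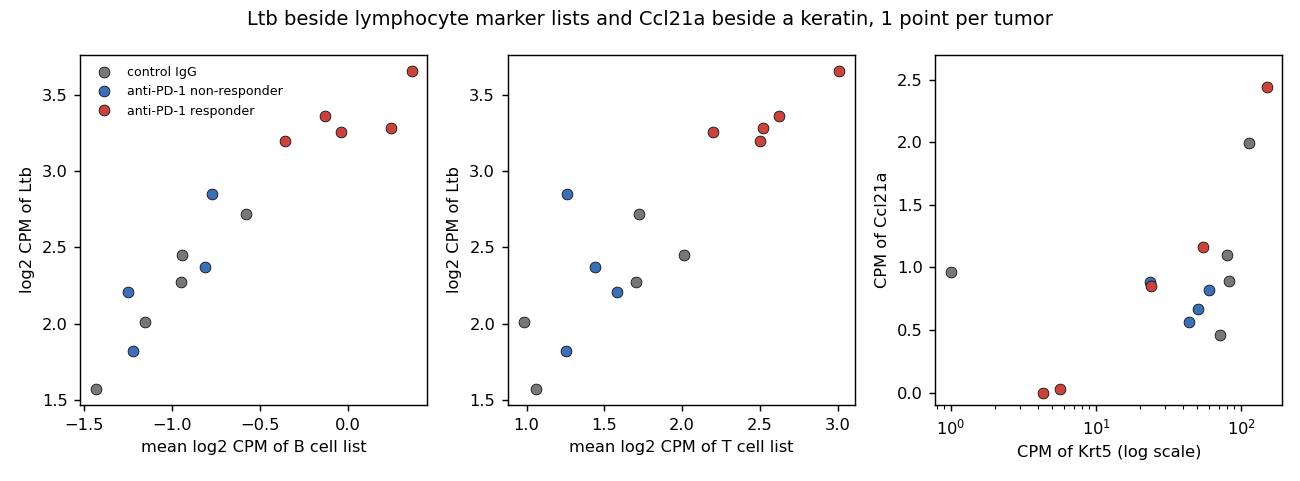
Log2 CPM of Ltb against the mean log2 CPM of B cell genes (left) and T cell genes (middle), and CPM of Ccl21a against CPM of the keratin Krt5 on a log axis (right), with 1 point per tumor in the color of its group. The responders lie at the upper right of the first 2 panels, and the tumors with the highest Ccl21a, 30R and 14L, have the highest Krt5 at 150 and 114 CPM.

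The 6 tested genes were not all correlated with each other. Over the 14 tumors, the highest correlation of log2 CPM among them was that of Ltb and Cd40 (r = 0.83, and 0.67 within groups), followed by Tnfsf13b and Ccl21a (r = 0.54, and 0.77 within groups). Cxcl13 correlated with Ltb at 0.19 (-0.26 within groups) and with Cd40 at -0.11 (-0.55 within groups). Ltb and its receptor Ltbr correlated at 0.11 (0.58 within groups). Non-responder 33R was the highest of its group in both, at 7.16 CPM of Ltb and 121 CPM of Ltbr. On the TPM scale its Ltbr, at 56.7, was within the range of the other tumors. The correlation without 33R was not computed. The 2 genes most like each of the 6, by Pearson's r of log2 CPM over 14 tumors, differed accordingly. For Ltb they were Ifitm1 and the T cell kinase gene Lck (both 0.96), and for Cd40 the interferon-induced Ifi47 (0.96) and Casp1 (0.95). For Cxcl13 they were Gm45752 (0.91) and Dpep2 (0.87), and for Tnfsf13b Chst10 (0.86) and Olfml2b (0.84). For Ccl21a they were Cst6 and Mmrn1, a gene of lymphatic endothelium (both 0.87), where Spearman's rho was lower (0.65 and 0.53). For Ltbr they were Anapc11 and Nedd8 (both 0.98), where Spearman's rho was 0.88 and 0.91.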

How the data were processed

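Bulk RNA-seq was analysed for 14 CT26 tumors, grouped by the treatment and response in the sample labels. Libraries were made from poly(A)-selected RNA. Reads were aligned by the authors with STAR (mm10), and RSEM gave their values per gene (versions and annotation not given in the sources used here). The authors deposited expected counts, which are estimated counts before any normalization, and RSEM splits a fragment among the genes it matches. TPM, also deposited, is scaled by effective length and library. The deposited FPKM values were not used.

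After rounding to whole numbers, expected counts went into edgeR 4.0.16 (R 4.3.3), with TMM factors, filterByExpr, and quasi-likelihood tests, and p-values were adjusted by Benjamini-Hochberg over the 16287 genes left. All 14 tumors entered 1 fit of 3 groups, and a gene was called at an adjusted p under 0.05. Tumors of the same mouse counted as separate samples, so that p-values measure the spread between tumors. Genes below the filter, and Ccl21a summed with the copies whose name begins with Ccl21, were compared by two-sided exact permutation tests on mean CPM (scipy 1.17.1). Log2 CPM used a prior count of 2. The tests were checked on simulated counts. Totals were between 33237744 and 48481461, and Poisson intervals cover counting error only.

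The 10 genes, the pathway and marker lists (169 genes, all found), and the tests were chosen with earlier results of these data known. Genes named are the 10, their copies, list genes that passed between responders and non-responders, partners that bind one of the 10, and the 2 nearest genes by correlation. Krt5, Lyve1, Il7, and Fut7 (the last 2 called against control IgG tumors) were named after their values were seen. Promoters and positions are from RefSeq (GRCm38.p6) and GENCODE M21, both of the mm10 build. Alternatives were DESeq2 1.42.0, limma-voom (limma 3.58.1) alone and with a random effect of mouse, other size factors, filters, and thresholds, counts summed per mouse, the compared groups alone, a loess trend on length, TPM with limma, and the omission of each tumor. Copies by transcript identity of at least 95% were added after the data were seen. Some genes of the lists are counted but not reported by name here.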

Additional observations from a re-analysis of the deposited data

Results flagged for a closer look

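In 3 results a tumor was far from the others of its group by Dixon's test at the 95% level, which flags about 1 in 20 groups by chance, and 29 groups were tested. Cd40 in non-responder 33R was at 6.46 CPM, against 3.46 to 3.87 CPM in the other non-responders. Its Ltb was also the highest of that group at 7.16 CPM, and its fragments were the longest of all tumors. Among control IgG tumors, 14L had the highest Lta (0.142 CPM, 5 counts) and the highest Ccl19 (0.199 CPM, 7.32 counts), both within a few counts of the detection limit.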

How the results depend on the processing

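Ltb was higher in responders than in control IgG tumors under all 13 other settings and all 14 omissions of a tumor (log2 fold change 0.98 to 1.28). Against non-responders it passed under all 13 other settings (1.01 to 1.28) and under 12 of 14 omissions (0.88 to 1.23), without responder 24L and without non-responder 32R excepted. The number of the 10 genes called between responders and non-responders was 2 after removal of the length trend and 2 on the TPM scale with either pseudocount (Cd40 added), and 0 to 1 over the omissions. Against control IgG tumors it was 1 without a filter and 1 with an absolute log2 fold change over 1, and 1 to 2 over the omissions. Over all genes, calls between responders and non-responders (1612) went to 2559 with DESeq2, 2973 with mouse as a random effect in limma-voom, 352 with an absolute log2 fold change over 1, 689 with the compared groups alone, and 569 (without 24L) to 1978 over the omissions. Against control IgG tumors (2147) they went to 517 with the fold threshold and 1190 (without 20R) to 3385 (without 33R). Between non-responders and control IgG tumors (0) they went to 16 with DESeq2, 3 without a filter, and 0 to 5 over the omissions. In the fit with mouse as a random effect, the estimated correlation within mouse was -0.282, from the few mice with a tumor of each flank. A negative value treats tumors of 1 mouse as less alike than tumors of different mice. That setting is therefore not a stricter allowance for mouse. The causes of these changes in calls were not tested.

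Directions turned for differences that had not passed. Ccl21a between responders and non-responders was -1.25 with limma-voom, -1.35 with mouse as a random effect, -0.73 in TPM with pseudocount 0.1, and -0.49 to 0.62 over the omissions, and against control IgG tumors it was -1.04 to 0.09. Summed with its copies, in CPM, the difference was -0.26 to 0.351 and -0.578 to 0.0329 over the omissions. Ltbr was 0.12 against non-responders and 0.13 against control IgG tumors in TPM with either pseudocount, and -0.04 to 0.03 against control IgG tumors and -0.01 to 0.2 for non-responders against them over the omissions. Tnfsf13b against control IgG tumors was 0.03 with counts summed per mouse, 0.02 and 0.01 in TPM with pseudocounts 1 and 0.1, and -0.14 to 0.11 over the omissions. Cxcl13 was -0.02 to 0.69 between responders and non-responders over the omissions. Between non-responders and control IgG tumors, Ltb was -0.01 and -0.00 in TPM and -0.12 to 0.24 over the omissions, Cd40 was -0.1 to 0.26, and Cxcl13 was -0.04 to 0.77. For the low genes, the difference in Cr2 was 0.0085 TPM against non-responders and -0.022 TPM against control IgG tumors, and -0.00832 to 0.0148 CPM against the latter over the omissions. Over the omissions, that in Cxcr5 was 0.0807 to 0.17 CPM against non-responders, where leaving out 35L gave an exact p of 0.0286, and -0.0304 to 0.0589 CPM against control IgG tumors. That in Lta was -0.00517 to 0.0432 CPM against non-responders and 0.0314 to 0.0611 CPM against control IgG tumors, where leaving out 30R gave an exact p of 0.0397.

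Depth limits Lta, Ccl19, and Cr2, which had fewer than 3 counts in 4, 10, and 10 of 14 tumors. No paired analysis was possible because tumor numbers are not shared between groups.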

Other observations

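The 3 mice with a tumor from each flank gave pairs of tumors in 1 host. Ltb differed by 0.27 (mouse 14, control IgG), 0.07 (mouse 30, responder), and 1.03 (mouse 33, non-responder) in log2 CPM, right minus left, and Cd40 by -0.03, -0.08, and 0.87. Ltbr differed by 0.26, -0.06, and 0.58. In mouse 33 all of these were higher in the right tumor, 33R.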
